A study of Homo sapiens with 21 samples.

Results

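Retromer and the sorting nexins move membrane proteins out of endosomes, back to the cell surface or to the Golgi, before they are degraded in lysosomes. The retromer core is a trimer of VPS35, VPS26 (made by the VPS26A or the VPS26B gene) and VPS29. Sorting nexins carry a PX domain that binds phosphoinositides on the endosome membrane. Some of them also carry cargo-binding or membrane-bending domains. The 10 genes described here are SNX12, SNX3, SNX17, SNX27, SNX1, SNX2, SNX5, VPS35, VPS26A and VPS29, taken by gene symbol from a table of 27142 genes. FPKM is the number of sequenced fragments scaled to exon length and to the depth of the library. All 10 passed the filter on low values, a level of 1 FPKM or more in 3 or more libraries, as did 13679 genes in all. The set was drawn up because SNX12 and SNX17 were low in cells given the B4GALNT1 shRNA. Values of the 10 genes in the B4GALNT1 shRNA comparison are therefore a description, with no test.

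Stranded mRNA libraries were made 48 h after lipid transfection of plasmids into HEK 293FT, cells derived from human embryonic kidney and carrying the SV40 large T antigen. The 21 libraries form 7 groups of 3, in this order below: B4GALNT1 shRNA, ANXA4 shRNA and non-targeting (NT) shRNA; RfxCasR with a B4GALNT1 guide RNA (gRNA) or an NT gRNA; and RfxCasR with an ANXA4 array or an NT array. An shRNA is a hairpin that is cut into a small RNA guiding Argonaute proteins to transcripts, and RfxCasR is a CRISPR nuclease that cuts RNA at sites chosen by a gRNA or by an array of several. B4GALNT1 makes gangliosides, ANXA4 is an annexin, and the study asked how specific the methods are. One shRNA was used per target, and the share of transfected cells is not given. In bulk RNA a loss in some cells and a smaller loss in all cells cannot be told apart.

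The FPKM steps give a depth of 21.4 to 30.7 M reads for each of the 15 shRNA or gRNA libraries, while the 6 array libraries were deeper, at 34.7 to 39.5 M reads. The 10 genes had between 716 reads (SNX27) and 8588 reads (VPS35) in a library. Of 10 HEK 293FT markers, 9 were at 1 FPKM or more in all 21 libraries, while 3 of 4 blood and 3 of 3 endothelial markers stayed under 1 FPKM. Of 4 fibroblast markers, 2 reached 1 FPKM in all libraries, with a summed level of 7.54 to 15 FPKM over the 4. B4GALNT1 itself was at 2.78 ± 0.183 FPKM with its shRNA, against 4.08 ± 0.179 with the NT shRNA (SD, n = 3 each). With its gRNA it was at 2.21 ± 0.167 FPKM, against 5.89 ± 0.907 with the NT gRNA. The NT shRNA level of B4GALNT1 was itself low, as the other groups not aimed at B4GALNT1 had means of 5.30 to 6.21 FPKM. ANXA4 was at 2.40 ± 0.22 FPKM with its shRNA, against 5.90 ± 0.378 with the NT shRNA. The target level contradicts the labels of the array libraries. It was high, at 7.03 ± 0.24 FPKM of ANXA4, in those labelled ANXA4 array and low, at 3.03 ± 0.427 FPKM in those labelled NT array (SD, n = 3 each). Array values are given below for the libraries as labelled.

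SNX12 and SNX3 are close relatives built of little more than a PX domain, and one was low with the B4GALNT1 shRNA while the other was not. Their coding sequences show how far reads from coding bases can tell them apart. Over 471 aligned coding bases they were identical at 72.4%, with a longest identical run of 14 bases. No word of 30 bases was common to the transcripts compared, of 720 bases for SNX12 and 1755 bases for SNX3. The authors counted 2382 bases for SNX12, so part of its counted sequence was not compared. The stretch around that longest run, from GENCODE v29 (GRCh38), is given 5′ to 3′ with the bases that differ between the 2 genes in capitals. It spans bases 179 to 238 of the SNX12 coding sequence (minus strand of chromosome X) and 188 to 247 of SNX3 (minus strand of chromosome 6).
SNX12: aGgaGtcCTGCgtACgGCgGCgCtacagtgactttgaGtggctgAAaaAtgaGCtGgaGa
SNX3: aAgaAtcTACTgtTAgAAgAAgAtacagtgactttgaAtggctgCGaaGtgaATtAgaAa
Of the 60 bases, 21 differ. A second pair of relatives in this pathway, VPS26A and VPS26B, was identical at 64.6% of 970 aligned coding bases, with no identical run over 8 bases. Their stretch spans bases 95 to 154 of VPS26A (plus strand of chromosome 10) and 89 to 148 of VPS26B (plus strand of chromosome 11), and 20 of its 60 bases differ.
VPS26A: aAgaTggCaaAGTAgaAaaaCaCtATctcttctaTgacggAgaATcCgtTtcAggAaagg
VPS26B: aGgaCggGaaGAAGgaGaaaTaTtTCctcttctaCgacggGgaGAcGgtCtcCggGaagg

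SNX17, SNX12 and VPS26A had their lowest levels of the study in the 3 B4GALNT1 shRNA libraries. Each of the 3 genes was lower there than in any of the other 18 libraries. Over all tested genes, 4.99% were placed like this, and since SNX12 and SNX17 were picked on these libraries nothing is read from the count. Between the B4GALNT1 shRNA and the NT shRNA, 7 of the 10 genes had groups that did not overlap, where 55.5% of all tested genes did not, and nothing is read from that count either. The median of the 10 was -0.02 log2, beside -0.04 over all tested genes.

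SNX17 is a cargo adaptor whose FERM domain binds receptors of the LDL receptor family and integrins for recycling through the retriever complex (NM_001267060, hg19 chr2:27593363-27600400, plus strand). It was at 18.8, 17.8 and 19.7 FPKM with the B4GALNT1 shRNA, at 45.7, 47.2 and 46.0 FPKM with the ANXA4 shRNA, and at 55.4, 61.6 and 56.9 FPKM with the NT shRNA. The B4GALNT1 gRNA libraries had 47.2, 50.9 and 48.5 FPKM and the NT gRNA libraries 49.2, 51.8 and 48.7 FPKM. The libraries labelled ANXA4 array had 40.5, 39.2 and 40.3 FPKM, and those labelled NT array 36.5, 46.7 and 38.3 FPKM. The NT shRNA group was the highest of the 7 and the B4GALNT1 shRNA group the lowest, with the 5 other groups between. The B4GALNT1 shRNA level was 0.324 times the NT shRNA level (-1.57 on the log2(FPKM + 1) scale, which is used for every difference here).

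SNX12, which binds endosomal phosphoinositides through its PX domain (NM_001256188, hg19 chrX:70279097-70288298, minus strand), followed the same order over the shRNA groups. It was at 14.8, 16.1 and 15.7 FPKM with the B4GALNT1 shRNA, at 37.3, 36.6 and 37.5 FPKM with the ANXA4 shRNA, and at 45.3, 45.9 and 43.2 FPKM with the NT shRNA. The B4GALNT1 gRNA libraries had 34.4, 35.4 and 35.1 FPKM and the NT gRNA libraries 35.9, 35.9 and 35.7 FPKM. The libraries labelled ANXA4 array had 29.5, 33.9 and 29.8 FPKM, and those labelled NT array 31.1, 33.5 and 30.9 FPKM. The shRNA groups did not overlap one another, and the 2 array groups overlapped. The B4GALNT1 shRNA level was 0.347 times the NT shRNA level (-1.47 log2). It was also below each RfxCasR group, the lowest library of which was at 29.5 FPKM.

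VPS26A, a subunit of the retromer core (NM_004896, hg19 chr10:70883909-70934172, plus strand), was the third of the 10 genes with a large difference. It was at 13.5, 13.6 and 14.1 FPKM with the B4GALNT1 shRNA, at 26.3, 25.5 and 25.5 FPKM with the ANXA4 shRNA, and at 25.9, 26.3 and 24.6 FPKM with the NT shRNA. The B4GALNT1 gRNA libraries had 23.0, 20.97 and 22.3 FPKM and the NT gRNA libraries 23.0, 24.1 and 22.2 FPKM. The libraries labelled ANXA4 array had 29.9, 29.4 and 30.9 FPKM, and those labelled NT array 31.7, 29.4 and 34.3 FPKM. Its level with the B4GALNT1 shRNA was 0.536 times that with the NT shRNA (-0.85 log2). Unlike SNX12 and SNX17, it had overlapping levels with the ANXA4 and the NT shRNA.

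**Figure D1:**
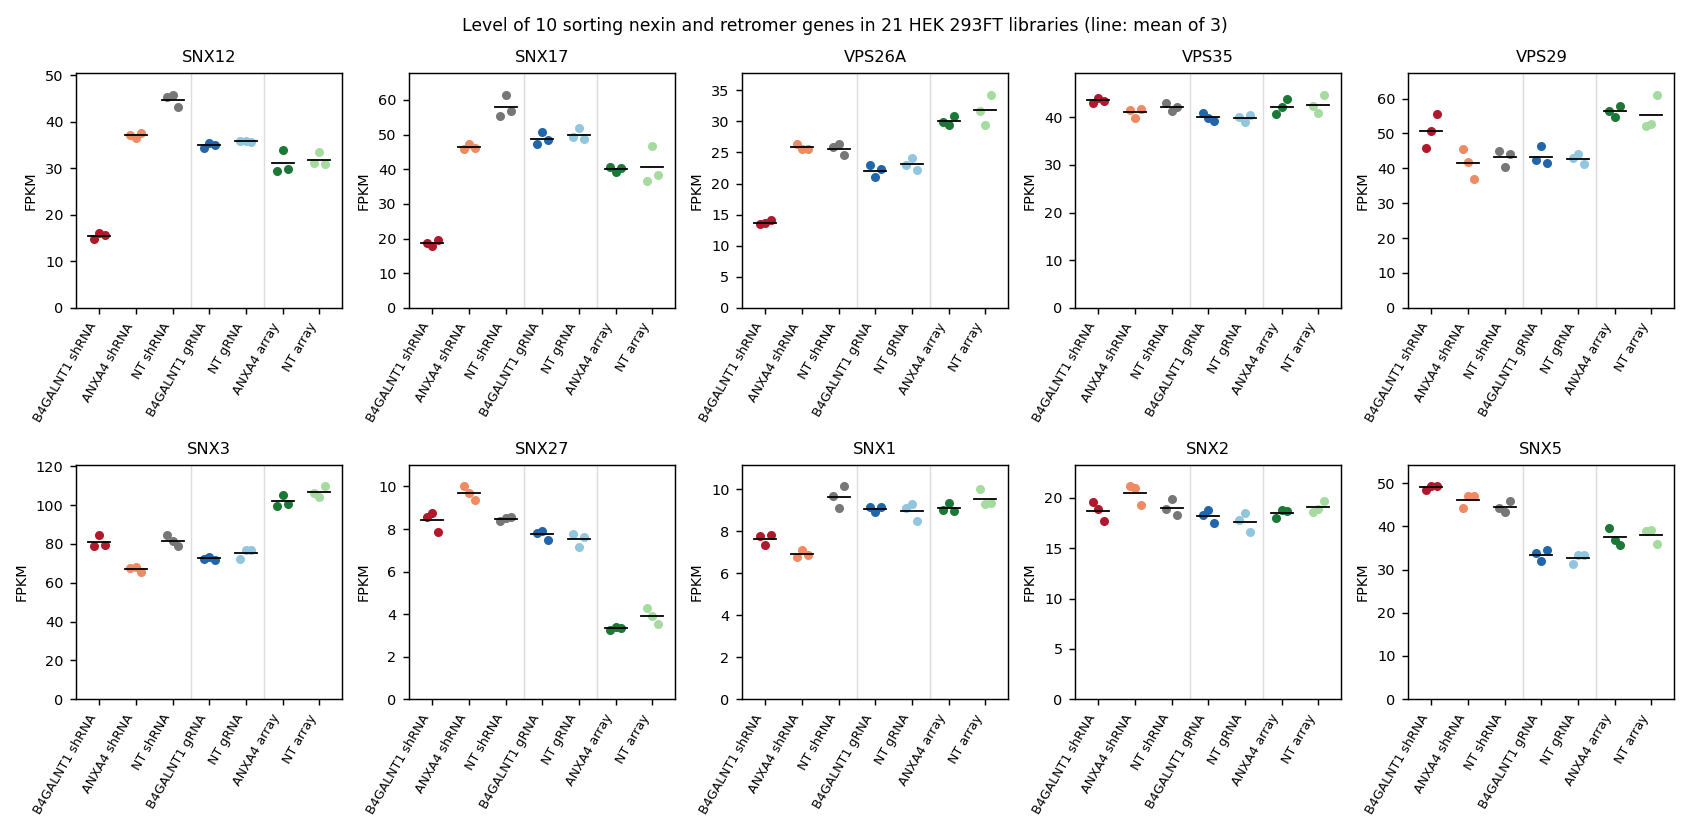
FPKM (y axes, from 0) of the 10 genes in each of 21 libraries, grouped on the x axes; points are libraries and lines are means of 3. SNX12, SNX17 and VPS26A lie lowest in the B4GALNT1 shRNA libraries, SNX27 in the array libraries, and VPS35 stays between 39.0 and 44.7 FPKM throughout.

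The partners of VPS26A in the retromer trimer did not share its pattern. VPS35, the scaffold that holds the other subunits (NM_018206, hg19 chr16:46691891-46723144, minus strand), had the narrowest spread of the 10 genes. Its 21 libraries lay between 39.0 and 44.7 FPKM, and its highest group mean was 1.09 times its lowest. VPS29, the subunit that binds the opposite end of VPS35 (NM_016226, hg19 chr12:110929328-110939945, minus strand), was at 45.8, 50.7 and 55.7 FPKM with the B4GALNT1 shRNA and at 45.1, 40.3 and 44.1 FPKM with the NT shRNA. That is a difference of 0.22 log2 in the direction opposite to VPS26A.

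FPKM is scaled to the exon length set for each gene, so the size of a ratio between genes depends on those lengths. Ratios are therefore read only as they change between groups, and not as relative amounts of subunits. The ratio of VPS26A to VPS35 was 0.315 ± 0.0077 with the B4GALNT1 shRNA, 0.63 ± 0.0137 with the ANXA4 shRNA and 0.607 ± 0.0274 with the NT shRNA (SD, n = 3 each). In the 4 RfxCasR groups the mean ratio ran between 0.553 and 0.746. VPS26B, which can take the place of VPS26A in the trimer, was at 21.1 ± 1.06 FPKM with the B4GALNT1 shRNA and at 19.9 ± 0.719 FPKM with the NT shRNA. This difference of 0.08 log2 was not called (limma adjusted p = 0.182, 95% interval -0.02 to 0.18), and a gene was called at an adjusted p under 0.05. The ratio of VPS26B to VPS26A transcripts was 1.54 ± 0.0584 with the B4GALNT1 shRNA, against 0.776 ± 0.0168 with the NT shRNA (SD, n = 3 each). In the groups other than the B4GALNT1 shRNA the mean ratio was 0.633 to 1.07.

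SNX3 recruits retromer to early endosomes and is needed to recycle the Wnt carrier WLS (NM_003795, hg19 chr6:108532421-108582464, minus strand). It was at 79.1, 84.4 and 79.7 FPKM with the B4GALNT1 shRNA and at 84.4, 81.4 and 79.2 FPKM with the NT shRNA, which overlap (-0.01 log2). The ratio of SNX12 to SNX3 was therefore 0.192 ± 0.0054 with the B4GALNT1 shRNA and 0.549 ± 0.0139 with the NT shRNA (SD, n = 3 each). With the ANXA4 shRNA both relatives were lower than with the NT shRNA, and the ratio was 0.553 ± 0.0179. In the RfxCasR groups the mean ratio ran from 0.298 (labelled NT array) to 0.482 (B4GALNT1 gRNA). SNX12 was picked for being low with the B4GALNT1 shRNA, so nothing is read from its low ratio there.

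SNX27 has a PDZ domain that picks up receptors and the glucose transporter SLC2A1 for retromer (NM_001330723, hg19 chr1:151584662-151671559, plus strand). It was at 8.57, 8.78 and 7.87 FPKM with the B4GALNT1 shRNA and at 8.38, 8.54 and 8.55 FPKM with the NT shRNA, groups that overlap. SNX1, SNX2 and SNX5 bend membrane into tubules through their BAR domains, with SNX1 or SNX2 paired to SNX5 or SNX6. SNX1 (NM_003099, hg19 chr15:64388083-64436433, plus strand) was at 7.76, 7.34 and 7.82 FPKM with the B4GALNT1 shRNA and at 9.65, 9.12 and 10.2 FPKM with the NT shRNA (-0.30 log2, groups apart). SNX2 (NM_003100, hg19 chr5:122110691-122170234, plus strand) was at 18.7 ± 0.977 FPKM with the B4GALNT1 shRNA and 19.0 ± 0.788 FPKM with the NT shRNA, groups that overlap.

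SNX5 (NM_014426, hg19 chr20:17922240-17949437, minus strand) was at 48.3, 49.4 and 49.3 FPKM with the B4GALNT1 shRNA, above the 44.2, 43.3 and 45.7 FPKM with the NT shRNA (0.14 log2). SNX6, its paralogue, identical at 66.7% of aligned coding bases, fell to 28.4 ± 0.253 FPKM with the B4GALNT1 shRNA, against 34.5 ± 1.49 FPKM with the NT shRNA (-0.27 log2, limma adjusted p = 2.29e-05). The ratio of SNX6 to SNX5 was 0.579 ± 0.0066 with the B4GALNT1 shRNA and 0.777 ± 0.0505 with the NT shRNA (SD, n = 3 each), and its mean was 0.938 to 1.00 in the RfxCasR groups. Reads of SNX5 may be less certain than those of the other genes, since 21.9% of its words of 30 bases also occur in transcripts of other genes, first among them the pseudogene SNX5P1.

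**Figure D2:**
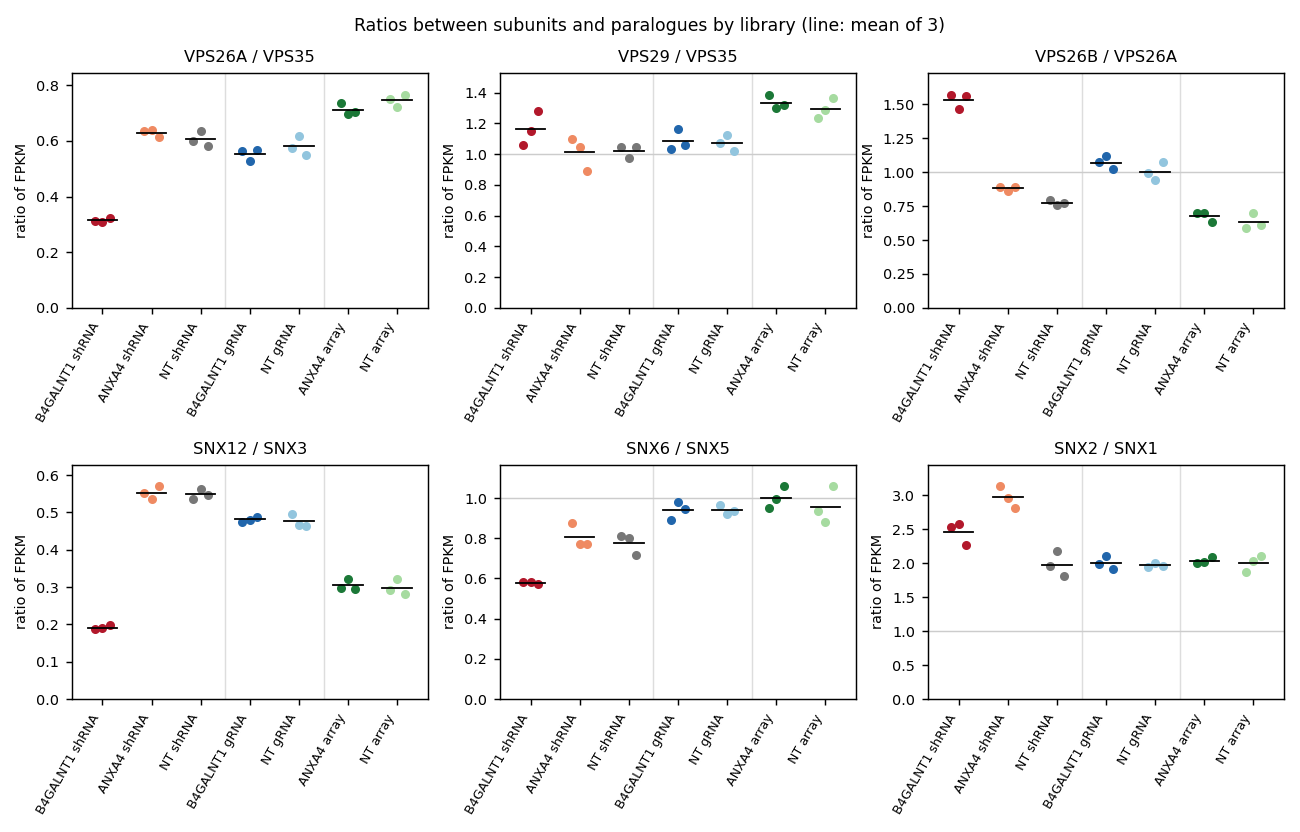
Ratios of FPKM between retromer subunits or relatives (y axes, from 0, no unit) in each library by group; points are libraries and lines are means of 3. With the B4GALNT1 shRNA the ratios of VPS26A to VPS35 (0.315), SNX12 to SNX3 (0.192) and SNX6 to SNX5 (0.579) are the lowest of the 7 groups, and VPS26B to VPS26A (1.54) is the highest. SNX12 was picked for being low with the B4GALNT1 shRNA, so nothing is read from the place of its ratio.

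The B4GALNT1 gRNA, which targets the same gene with RfxCasR, was set against the NT gRNA in libraries that had no part in choosing the genes. None of the 10 genes was called. Across all tested genes limma called 0.00731%, which is 1 gene, namely B4GALNT1, and 523 had an unadjusted p under 0.05. The authors' deposited table has 2 genes at an adjusted p under 0.05. The differences ran from -0.06 log2 for VPS26A to 0.04 for SNX2, with a median of 0.01 beside -0.00334 over all tested genes. For SNX12 the difference was -0.04 log2 with a 95% interval of -0.13 to 0.06 (limma adjusted p = 1). Its groups alone among the 10 did not overlap, beside 11.8% of all tested genes. For SNX17 it was -0.03 log2, with an interval of -0.16 to 0.11 (limma adjusted p = 1). For VPS26A the interval was -0.16 to 0.04 log2. The difference between the methods was not tested for these genes, because the shRNA values had chosen SNX12 and SNX17.

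The ANXA4 shRNA was set against the NT shRNA, whose libraries also served the B4GALNT1 shRNA. SNX12 and SNX17 were chosen with those libraries, so their values carry no test. SNX12 was at 37.1 ± 0.489 FPKM with the ANXA4 shRNA and 44.8 ± 1.38 FPKM with the NT shRNA (-0.26 log2), and SNX17 at 46.3 ± 0.748 and 57.9 ± 3.22 FPKM in the same order (-0.32 log2; SD, n = 3 each). Of the 8 other genes, 3 were called, where limma called 51.8% of all tested genes, so that a call is common in this comparison. One was higher and 2 were lower, beside 25.6% and 26.3% of all tested genes. Groups did not overlap for 5 of all 10 genes and for 60.9% of all tested genes. SNX1 fell to 6.90 ± 0.177 FPKM with the ANXA4 shRNA, against 9.64 ± 0.517 FPKM with the NT shRNA (-0.43 log2, SE 0.0469, limma adjusted p = 3.19e-07). SNX3 fell to 67.2 ± 1.35 FPKM with the ANXA4 shRNA, against 81.6 ± 2.59 FPKM with the NT shRNA (-0.28 log2, SE 0.0357, limma adjusted p = 2.46e-06). Both separated all libraries of the 2 groups.

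SNX27 rose to 9.69 ± 0.337 FPKM with the ANXA4 shRNA, against 8.49 ± 0.0957 FPKM with the NT shRNA (0.17 log2, limma adjusted p = 0.0138). Without replicate 1 of the ANXA4 shRNA this call was lost (limma adjusted p = 0.0599). SNX2 was at 20.5 FPKM with the ANXA4 shRNA and 19.0 FPKM with the NT shRNA (0.10 log2, limma adjusted p = 0.0934). It passed the threshold without replicate 3 of the ANXA4 shRNA (limma adjusted p = 0.031) and in the authors' deposited table (adjusted p = 0.0402). The retromer trimer was not called: VPS35 differed by -0.04 log2 (95% interval -0.11 to 0.04), VPS26A by 0.01 (-0.09 to 0.11) and VPS29 by -0.06 (-0.22 to 0.10). SNX5 differed by 0.05 log2 (-0.04 to 0.15). With SNX1 lower and SNX2 not, the ratio of SNX2 to SNX1 was 2.97 ± 0.163 with the ANXA4 shRNA and 1.98 ± 0.189 with the NT shRNA (SD, n = 3 each).

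The ANXA4 shRNA was also set against the NT gRNA, a comparison free of the libraries that chose the genes, in which the target and the method cannot be told apart. The ANXA4 shRNA and the NT gRNA libraries also serve the comparisons above. Limma called 6 of the 10 genes, beside 54.0% of all tested genes, a share near the background. Groups did not overlap for 8 of the 10, beside 63.7%. SNX5 rose to 46.1 ± 1.64 FPKM with the ANXA4 shRNA, against 32.6 ± 1.13 FPKM with the NT gRNA (0.48 log2, SE 0.0448, limma adjusted p = 4.62e-08). The NT shRNA libraries, with no targeting hairpin, were also high, at 44.4 ± 1.24 FPKM of SNX5. SNX27 (0.33 log2), SNX2 (0.21) and VPS26A (0.15) also rose, and SNX1 (-0.33) and SNX3 (-0.16) fell. Without replicate 3 of the NT gRNA the VPS26A call was lost (limma adjusted p = 0.0648). SNX12 was not called at 37.1 FPKM with the ANXA4 shRNA and 35.9 FPKM with the NT gRNA (0.05 log2, 95% interval -0.05 to 0.15, limma adjusted p = 0.391). SNX17 was not called either (-0.10 log2, interval -0.24 to 0.03, limma adjusted p = 0.18). With only those 2 groups in the model SNX17 was called (limma adjusted p = 0.0267).

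**Figure D3:**
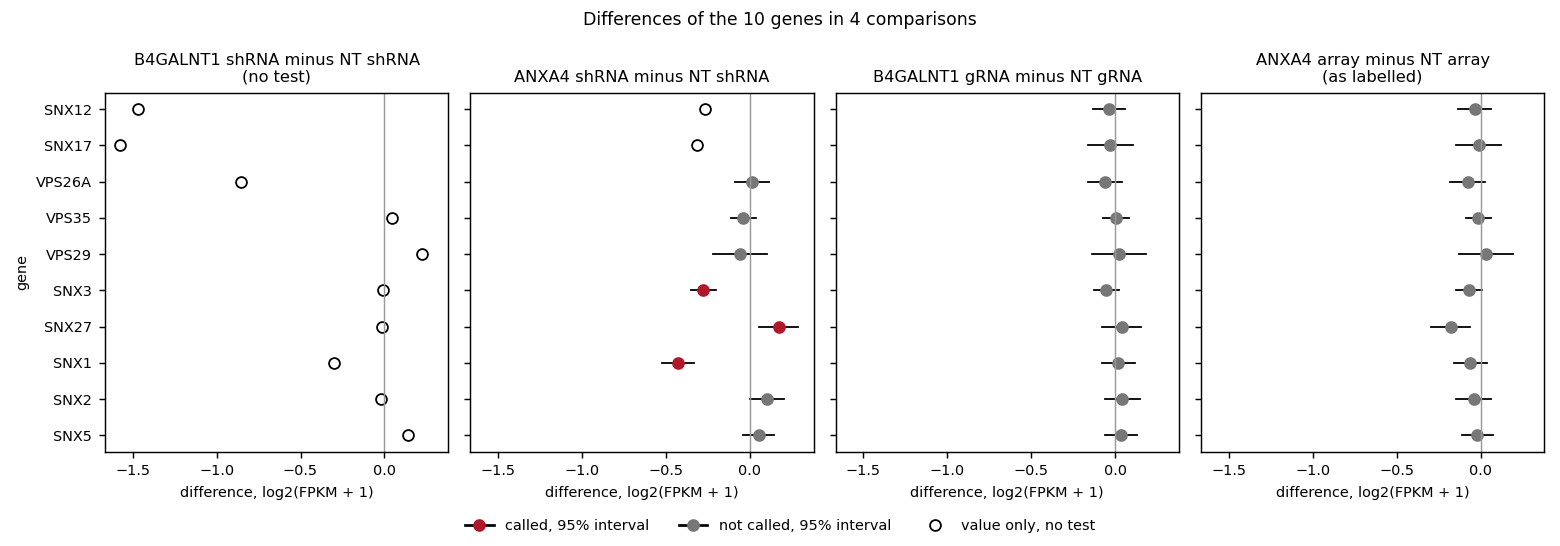
Differences in log2(FPKM + 1) (x axes) of the 10 genes (y axis) in 4 comparisons; filled points have limma 95% intervals and open points are values with no test. SNX12, SNX17 and VPS26A stand at -1.47, -1.57 and -0.85 with the B4GALNT1 shRNA, while all 10 lie within 0.07 of 0 with the B4GALNT1 gRNA.

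Between the libraries labelled ANXA4 array and NT array none of the 10 genes was called, where limma called 0.285% of all tested genes, which is 39 genes. At an unadjusted p under 0.05 there were 1474 genes, and the authors' deposited table has 8 at an adjusted p under 0.05. The largest difference among the 10, and the only one whose groups did not overlap (10.3% of all tested genes), was in SNX27, at 3.26, 3.39 and 3.36 FPKM in the libraries labelled ANXA4 array and 4.30, 3.92 and 3.53 FPKM in those labelled NT array (-0.18 log2, limma adjusted p = 0.208). The authors' deposited table gives 0.227 log2 for SNX27, and in that table ANXA4 and all 10 genes have the sign opposite to the libraries as labelled. The median of the 10 genes was -0.04 log2 as labelled, beside 0.00535 over all tested genes, and its direction is as doubtful as the labels.

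The array libraries differed from the rest in 3 of the 10 genes whatever their label. SNX27 was at 3.26 to 4.30 FPKM in the 6 array libraries and at 7.14 to 10.0 FPKM in the other 15. VPS26A was at 29.4 to 34.3 FPKM in the arrays and 13.5 to 26.3 FPKM elsewhere, and SNX3 at 99.5 to 110 FPKM in the arrays and 65.7 to 84.4 FPKM elsewhere. Over all tested genes, 11.9% lay lower and 9.31% higher in all array libraries than in every other library, so 3 of 10 is not far from that background. The array libraries were also deeper, and depth and array design cannot be told apart.

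Other endosomal sorting genes gave a measure of how common such differences were. The 7 lists held 138 tested genes, chosen with results of these data known. With the B4GALNT1 gRNA none of the 138 was called, and their differences ran from -0.21 to 0.20 log2. Between the array groups none was called either, with differences of -0.22 to 0.33 log2 as labelled. With the B4GALNT1 shRNA limma called 44.4% of all tested genes, 18.4% higher and 26.0% lower, and 35.7% to 68.4% of the genes of each list. After median centring the split over all genes was 3162 higher and 2775 lower, against 2523 and 3554 without it. For the ANXA4 shRNA against the NT shRNA limma called 51.8% of all tested genes, 25.6% higher and 26.3% lower, and 28.6% to 79% of the genes of each list. With the filter set at 5 FPKM in 3 libraries, limma called 5090 of 9795 genes with the B4GALNT1 shRNA and 5906 of 9795 with the ANXA4 shRNA. Both are larger shares than under the filter used here, so the background set beside the lists depends on the filter. With the B4GALNT1 shRNA no listed gene had a difference as low as the -0.85 log2 of VPS26A. Since the lists were chosen with results known, nothing is read from this. The lowest difference among the listed genes was that of UVRAG, a partner of the endosomal phosphoinositide kinase, at 4.32 ± 0.214 FPKM with the B4GALNT1 shRNA and 8.21 ± 0.219 FPKM with the NT shRNA (-0.79 log2, limma adjusted p = 8.83e-09). UVRAG was also lower with the ANXA4 shRNA than with the NT shRNA (-0.54 log2). Between the ANXA4 shRNA and the NT gRNA it differed by -0.12 log2.

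Of 20 other sorting nexins tested, 3 rose and 10 fell with the B4GALNT1 shRNA, with a median of -0.19 log2 beside -0.04 over all tested genes. That is 65% of the list, beside 44.4% of all tested genes (18.4% higher and 26.0% lower). These counts are without median centring, after which the split over all tested genes was 3162 higher and 2775 lower. SNX15 fell to 16.6 ± 0.298 FPKM with the B4GALNT1 shRNA, against 26.0 ± 0.429 FPKM with the NT shRNA (-0.62 log2, limma adjusted p = 3.7e-09). SNX25 fell by 0.33 on the log2 scale. With the ANXA4 shRNA 6 of the 20 rose and 7 fell, 65% of the list beside 51.8% of all tested genes. SNX11 rose to 23.6 ± 1.29 FPKM with the ANXA4 shRNA, against 12.0 ± 0.185 FPKM with the NT shRNA (0.92 log2, limma adjusted p = 4.99e-08). SNX24 rose by 0.88 and SNX7 fell by 0.61 on the log2 scale.

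Retromer partners and the WASH complex, which makes actin on endosomes, had 5 rises and 5 falls among 17 genes with the B4GALNT1 shRNA. That is 58.8% of the list, beside 44.4% of all tested genes. After median centring there were 6 rises and 4 falls. ANKRD50, which links retromer to SNX27 and WASH, fell to 3.12 ± 0.0225 FPKM with the B4GALNT1 shRNA, against 5.24 ± 0.2 FPKM with the NT shRNA (-0.60 log2, limma adjusted p = 8.27e-08). WASHC4 fell by 0.44 on the log2 scale, and RAB7A, the late endosomal GTPase that recruits retromer, rose by 0.26. With the ANXA4 shRNA 6 of the 17 rose and 5 fell, 64.7% of the list beside 51.8% of all tested genes. TBC1D5, which turns off RAB7A, fell to 4.28 ± 0.253 FPKM with the ANXA4 shRNA, against 7.86 ± 0.344 FPKM with the NT shRNA (-0.75 log2, limma adjusted p = 1.36e-08).

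The retriever and CCC complexes, with which SNX17 works, had 2 rises and 4 falls among 14 genes with the B4GALNT1 shRNA. That is 42.9% of the list, beside 44.4% of all tested genes. After median centring there were 4 rises and 4 falls. The largest fall among the named genes of this list was in CCDC22 (-0.31 log2), and DSCR3, the VPS26-like subunit of retriever, fell by 0.23. With the ANXA4 shRNA 4 of the 14 rose and none fell, 28.6% of the list beside 51.8% of all tested genes. C16orf62, the VPS35-like subunit, was among those that rose (0.24 log2). Among 31 ESCRT genes, which sort cargo for degradation, 8 rose and 8 fell with the B4GALNT1 shRNA (11 and 7 after median centring), and 9 rose and 11 fell with the ANXA4 shRNA. Without centring 51.6% of the list was called with the B4GALNT1 shRNA, beside 44.4% of all tested genes. With the ANXA4 shRNA it was 64.5%, beside 51.8%. CHMP2B rose to 31.8 ± 0.556 FPKM with the B4GALNT1 shRNA and fell to 13.5 ± 0.979 FPKM with the ANXA4 shRNA, against 22.1 ± 0.601 FPKM with the NT shRNA (SD, n = 3 each). The NT gRNA libraries had 28.7 ± 0.756 FPKM of CHMP2B, so the size of the rise depends on which control is taken. The ANXA4 shRNA level was low against the NT gRNA too (-1.04 log2).

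Tethers of the HOPS, CORVET and GARP complexes had 1 rise and 4 falls among 14 genes with the B4GALNT1 shRNA. These are 35.7% of the tethers, beside 44.4% of all tested genes, without median centring. With the ANXA4 shRNA the tethers had 2 rises and 6 falls, of which 3 falls were called without replicate 1 of the ANXA4 shRNA or replicate 3 of the NT shRNA. With all libraries 57.1% of the list was called with the ANXA4 shRNA, beside 51.8% of all tested genes. VPS52, a GARP subunit, fell with both, by 0.56 and 0.41 on the log2 scale. Both falls are against the same NT shRNA libraries, and between the ANXA4 shRNA and the NT gRNA VPS52 differed by -0.13 log2. Endosomal Rab proteins and phosphoinositide enzymes had 8 rises and 7 falls among 23 genes with the B4GALNT1 shRNA, and 6 rises and 10 falls with the ANXA4 shRNA. The share called was 65.2% beside 44.4% of all tested genes with the B4GALNT1 shRNA, and 69.6% beside 51.8% with the ANXA4 shRNA. RAB5B fell by 0.50 on the log2 scale with the B4GALNT1 shRNA, and MTMR2, a phosphoinositide phosphatase, rose by 0.47 with it and by 0.54 with the ANXA4 shRNA. The rises of MTMR2 also share the NT shRNA libraries, and between the ANXA4 shRNA and the NT gRNA MTMR2 differed by 0.11 log2.

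Sorted cargo receptors had 7 rises and 6 falls among 19 genes with the B4GALNT1 shRNA, 68.4% of the list beside 44.4% of all tested genes. IGF2R, the mannose 6-phosphate receptor retrieved by SNX1, SNX2, SNX5 and SNX6, fell to 16.8 ± 0.786 FPKM with the B4GALNT1 shRNA, against 22.9 ± 0.593 FPKM with the NT shRNA (-0.42 log2, limma adjusted p = 1.72e-07). The NT gRNA libraries, however, had 15.97 ± 0.346 FPKM of IGF2R, near the B4GALNT1 shRNA level. The ANXA4 shRNA libraries had 24.55 ± 0.82 FPKM, so the fall depends on which control is taken. WLS, the cargo of SNX3 and retromer, rose to 58.4 ± 1.36 FPKM with the B4GALNT1 shRNA, against 43.8 ± 2.74 FPKM with the NT shRNA (0.41 log2, limma adjusted p = 5.23e-07). It rose by 0.42 log2 with the ANXA4 shRNA against the same NT shRNA libraries. Between the ANXA4 shRNA and the NT gRNA WLS differed by 0.15 log2. With the ANXA4 shRNA 9 of the 19 rose and 6 fell, 79% of the list beside 51.8% of all tested genes. ITGB1, the integrin chain recycled by SNX17, fell to 31.1 ± 1.4 FPKM with the ANXA4 shRNA, against 65.0 ± 3.14 FPKM with the NT shRNA (-1.04 log2, limma adjusted p = 5.36e-11). Protein levels and cargo sorting were not measured.

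**Figure D4:**
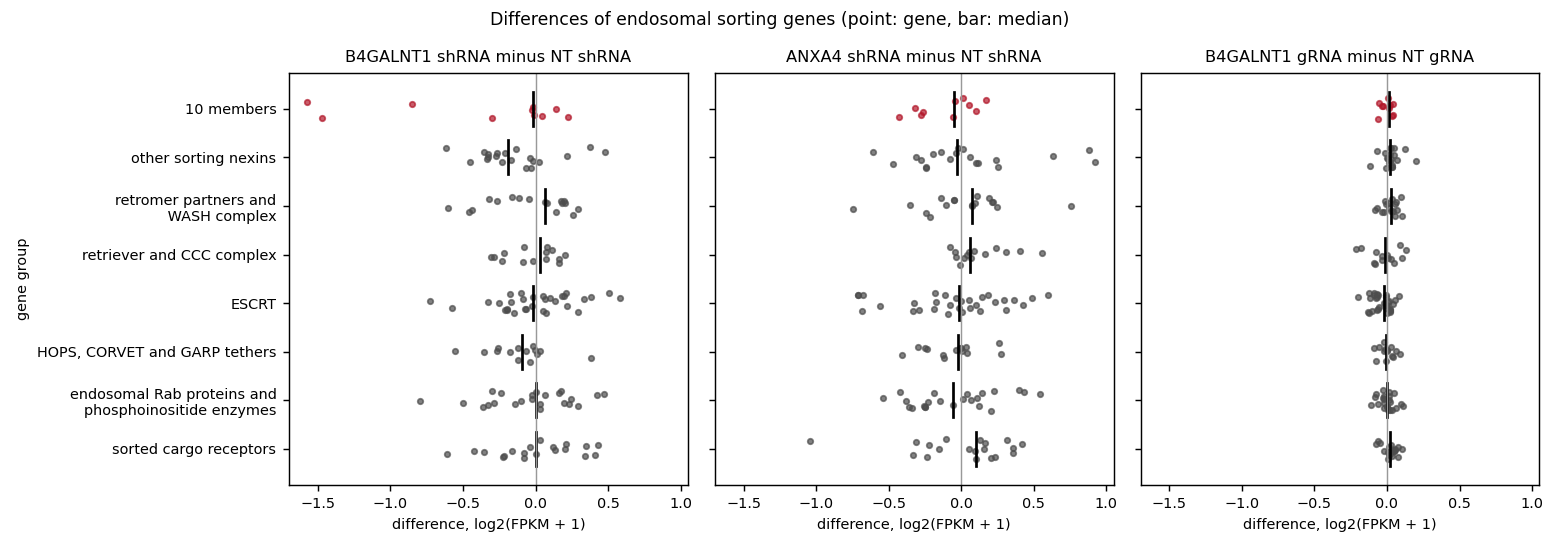
Differences in log2(FPKM + 1) (x axes) of the 10 genes and of 7 lists of other endosomal sorting genes (y axis) in 3 comparisons; points are genes and bars are medians. With the B4GALNT1 shRNA, SNX17, SNX12 and VPS26A lie to the left of every listed gene. SNX12 and SNX17 were picked on that comparison and the lists were chosen with results known, so nothing is read from this. With the B4GALNT1 gRNA the listed genes stay between -0.21 and 0.20.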

How the data were processed

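The authors deposited FPKM values for 27142 genes in 21 libraries. The file headers name HOMER's repeat and RNA counting program with hg19, exon counts, condensed genes and its + strand setting, so FPKM is per the file headers an exon-length and depth scaled value. The submitters' processing notes name the aligner STAR, FastQC, R 3.3.2 and DESeq2 1.14.1 beside HOMER. The authors' deposited comparison tables, 4 in all, hold a mean normalized signal per gene, the log2 fold change and the adjusted p-value, of which the fold change and the p-value were used, as the authors' own values.

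FPKM times exon length came within 0.1 of a whole read for 96.7% to 99.6% of the values below 1000 reads, library by library. Testing used log2(FPKM + 1), a scale that understates changes of low genes, for the 13679 genes that reached 1 FPKM in 3 or more libraries. A single limma 3.58.1 model (R 4.3.3) of the 7 groups over all 21 libraries, with a variance trend, gave 5 comparisons. The threshold was a Benjamini-Hochberg adjusted p of 0.05 over all tested genes. The labels call the replicates biological without saying that they are separate cultures, so the p-values speak of the spread between these samples, which may be technical.

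The 10 genes and the 7 lists were chosen with earlier results of these data known. List symbols were matched directly or, in 8 cases, through an older name. Named genes are the 10, both targets, relatives, and up to 3 called genes of smallest p per list and comparison, not all of them printed. Coding sequences came from GENCODE v29. The procedure was tested on simulated data. Alternatives covered the pseudocount, filters on low values, median centring, quantile normalization, models of the compared groups alone or without the variance trend, a replicate block, voom on the recovered reads, a threshold of 0.01, the authors' deposited tables and the removal of each library. A model without array libraries was added after seeing the data.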

Additional observations from a re-analysis of the deposited data

How the results depend on the processing

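Among the 10 genes no called difference changed sign under any alternative run. The count of called genes among the 10 stayed at 0 for the B4GALNT1 gRNA and for the arrays, was 2 to 4 of 8 for the ANXA4 shRNA against the NT shRNA, and 5 to 7 of 10 against the NT gRNA. The counts over all tested genes for the ANXA4 and B4GALNT1 shRNAs stayed within 1.5 times of 7089 and 6077. With the B4GALNT1 gRNA 1 gene was called, against 2 with no filter on low values, 2 in the authors' deposited table and 3 without the array libraries. For the arrays 39 genes were called, against 3 with only the 2 groups compared, 114 with voom on recovered reads, 7 at an adjusted p under 0.01, 8 in the authors' deposited table, and 23 to 55 when single libraries were left out (23 without replicate 2 of the ANXA4 array). The deviations of same-numbered replicates correlated by -0.146 to 0.0723 within the comparisons, none over 0.1, and the numbers were not taken to pair the samples. In the B4GALNT1 gRNA and the ANXA4 shRNA comparisons with the NT gRNA all 3 pairs were positive and each B4GALNT1 gRNA or ANXA4 shRNA library correlated best with the NT gRNA library of its own number, a hint from the data and not the design. With a replicate block in the model 2 genes were called for the B4GALNT1 gRNA, 34 for the arrays, 7111 for the ANXA4 shRNA against the NT shRNA, 7394 for it against the NT gRNA and 6099 for the B4GALNT1 shRNA. Of the listed genes, 1 was called between the array groups with voom and none otherwise. The small differences of SNX5 and VPS35 with the B4GALNT1 shRNA, 0.14 and 0.04 log2, were 0.19 and 0.09 after median centring. At an adjusted p under 0.01 SNX27 with the ANXA4 shRNA and VPS26A against the NT gRNA were not called. The cause of these shifts was not tested.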

Other observations

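Of the tested genes whose group means span at least 1 log2 (1007 besides the gene compared), those most like SNX12 over the 21 libraries were SNX17 (Pearson r = 0.981), MCRIP1 (0.98) and GATAD2A (0.974), and those most like SNX17 were SNX12, MCRIP1 (0.973) and GATAD2A (0.967). The 3 B4GALNT1 shRNA libraries stand apart from the rest in all of these genes. Over the 18 other libraries r with SNX12 was 0.879 for SNX17, 0.885 for MCRIP1 and 0.815 for GATAD2A. SNX12 and SNX17 were picked for being low in those 3 libraries, and the span of at least 1 log2 favours genes that differ there, so the ranking follows from the choice of genes and nothing is read from it. The values carry no p. MCRIP1 was at 44.1 FPKM with the B4GALNT1 shRNA and 145 FPKM with the NT shRNA. VPS26A had r = 0.723 with SNX12 and 0.684 with SNX17 over the 21 libraries, but -0.465 and -0.673 over the 18 without the B4GALNT1 shRNA, so the positive values rest on those 3 libraries.

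The coding transcript compared can be shorter than the sequence counted by the authors, and the rest was not compared. It is 720 bases against 2382 counted for SNX12, 1971 against 8298 for SNX1 and 2697 against 4245 for VPS26A. In the transcripts compared, no word of 30 bases of SNX12, SNX17, SNX1 or VPS26B occurred in a transcript of another gene in GENCODE v29. The share was 0.521% for SNX3 and 4.39% for VPS26A, whose words were shared with the pseudogenes VPS26AP1 and VPS26BP1, and 9.58% for VPS35. SNX32, a relative of SNX5, was under 1 FPKM in all 21 libraries and was not tested.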
